A study of Rattus norvegicus with 9 samples.

Results

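The cytosolic heat shock protein genes described here are 10 genes measured by RNA sequencing in a pelvic floor muscle of rats: the small heat shock protein genes Hspb1, Hspb6, Hspb7 and Cryab, the Hsp70-class genes Hspa8 and Hsph1, the co-chaperone gene Dnajb1, the Hsp90 genes Hsp90aa1 and Hsp90ab1, and Hsf1, the gene of the transcription factor that drives the heat shock response. They were chosen by gene symbol, and where a symbol stood on several rows the row with the highest mean count was used. All 10 were found among the 30518 rows of the tables, and all 10 were among the 16256 rows that passed the filter on low counts. The muscle was the pubococcygeus, part of the sling of skeletal muscle that closes the pelvis from below, taken from female Sprague-Dawley rats. In the stimulated group, rats first had the model of stress urinary incontinence (SUI): both ovaries were removed, and the vagina was distended with an 8 Fr balloon catheter holding 3 mL of saline under the pull of a 120 g weight for 4 h. From 1 week later they had transvaginal pelvic floor electrical stimulation at 50 Hz, 20 mA and 200 µs for 30 min a day, 5 days a week, for 2 weeks. The SUI group had the same ovary removal and distension and then no treatment. The blank group was left untouched. Each group has 3 libraries, 9 in all, from a study of 24 rats with 8 per group. How the libraries relate to the rats is not stated beyond their numbers, so the p-values measure the spread between libraries, which may be technical. SUI libraries carry sham in their names, but their titles give ovary removal with distension and nothing after it, and the groups follow the titles. The labels describe no sham stimulation and no ovary removal or distension alone, so the effects of these steps cannot be told apart. The sources used here give no ages.

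Heat shock proteins are chaperones that keep other proteins from clumping and help them fold. Small heat shock proteins hold unfolding clients without using ATP, and in striated muscle they sit at the Z-disc and on desmin and actin filaments, which are under repeated strain. Hsp70 proteins fold clients in cycles of ATP use that are started by J-domain proteins and reset by Hsp110 proteins, and Hsp90 proteins finish the folding of kinases, receptors and myosin. Hsf1 switches on many of these genes by binding heat shock elements, repeats of the unit nGAAn in alternating orientation. It is itself controlled largely after translation, so that the level of Hsf1 mRNA is not a readout of its activity.

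The promoters of the genes are shown because they were searched for the heat shock element, which Hsf1 binds. RefSeq promoter windows of the GRCr8 assembly, from 250 bases before to 50 bases after each annotated start, were at hand for 7 of the 10 genes. They were searched on both strands for the letters GAANNTTC, a head-to-head pair of units, and TTCNNGAA, a tail-to-tail pair. They were also searched for the run of 3 units that is GAANNTTC followed directly by NNGAA, which overlaps a match of both pairs. Capitals mark every match, and each sequence runs 5′ to 3′ on the strand of its gene. Hspa8 is at chr8:50080264-50080563 (plus strand), Hsph1 at chr12:10427118-10427417 (plus), Hspb1 at chr12:26432252-26432551 (minus), Hspb6 at chr1:94934122-94934421 (plus) and Dnajb1 at chr19:41431092-41431391 (minus).
Hspa8: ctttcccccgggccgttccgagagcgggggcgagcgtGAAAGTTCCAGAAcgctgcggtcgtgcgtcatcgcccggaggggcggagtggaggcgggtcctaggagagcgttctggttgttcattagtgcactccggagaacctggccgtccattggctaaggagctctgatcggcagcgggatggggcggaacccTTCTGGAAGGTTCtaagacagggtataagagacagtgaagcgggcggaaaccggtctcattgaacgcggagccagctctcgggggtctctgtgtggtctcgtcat
Hsph1: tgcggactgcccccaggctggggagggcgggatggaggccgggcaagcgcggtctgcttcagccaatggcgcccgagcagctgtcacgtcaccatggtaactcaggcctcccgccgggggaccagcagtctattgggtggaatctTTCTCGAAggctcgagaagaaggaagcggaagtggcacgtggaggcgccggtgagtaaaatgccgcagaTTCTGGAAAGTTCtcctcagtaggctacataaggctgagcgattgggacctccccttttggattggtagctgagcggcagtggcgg
Hspb1: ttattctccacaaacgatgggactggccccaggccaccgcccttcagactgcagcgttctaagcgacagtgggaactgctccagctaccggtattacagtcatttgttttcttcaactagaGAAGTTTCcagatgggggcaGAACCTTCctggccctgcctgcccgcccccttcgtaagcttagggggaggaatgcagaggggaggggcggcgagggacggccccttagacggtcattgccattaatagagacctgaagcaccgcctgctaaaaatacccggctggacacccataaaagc
Hspb6: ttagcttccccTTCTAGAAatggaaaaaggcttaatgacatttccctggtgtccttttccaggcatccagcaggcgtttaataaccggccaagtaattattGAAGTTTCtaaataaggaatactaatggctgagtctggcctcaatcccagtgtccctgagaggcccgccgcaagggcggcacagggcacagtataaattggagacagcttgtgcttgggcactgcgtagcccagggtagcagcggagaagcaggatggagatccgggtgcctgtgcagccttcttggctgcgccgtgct
Dnajb1: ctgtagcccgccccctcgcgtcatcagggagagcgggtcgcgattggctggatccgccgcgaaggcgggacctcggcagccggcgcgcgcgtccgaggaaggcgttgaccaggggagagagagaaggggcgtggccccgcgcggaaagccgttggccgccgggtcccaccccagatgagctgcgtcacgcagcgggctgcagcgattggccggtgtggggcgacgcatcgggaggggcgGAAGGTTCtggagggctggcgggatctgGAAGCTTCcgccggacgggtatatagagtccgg

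The run of 3 units occurred in the promoters of Hspa8 and Hsph1. Hspa8 held it at -213 to -201 and again at -55 to -43 relative to the start, and Hsph1 at -36 to -24, with a further TTCNNGAA match at -105 to -98. Of all 33469 RefSeq rat promoters of the same length, 0.798% held this run. The other matches were of paired units. Hspb1 had GAANNTTC at -129 to -122 and at -109 to -102. Hspb6 had it at -149 to -142 and had TTCNNGAA at -239 to -232. Dnajb1 had GAANNTTC at -11 to -4 and, past its annotated start, at 18 to 25. Hspb7 and Hsp90ab1 had no match in their windows, so 5 of the 7 windows held at least 1 of the 3 letter patterns, which 15.9% of all promoters did. GAANNTTC alone was in 8.59% and TTCNNGAA alone in 8.77% of all promoters. These matches are descriptions of letters, not of sites in use.

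The libraries held between 50833480 counts (blank 1) and 147650284 counts (stimulated 1), with a median of 110699836. Values below are CPM, counts scaled to a common library size with TMM factors, or FPKM, fragments scaled for transcript length and library size, where genes are compared with each other. Blank 1 and SUI 1 were unlike the rest: transcripts of the mitochondrial genome took 32.9% of the counts of blank 1 and 13.4% to 17.7% elsewhere, and the TMM factor of SUI 1 was 1.30. In blank 1 the shortest of 5 equal classes of genes averaged -0.430 on the log2 scale against all libraries. Hspb1 and Cryab were the shortest of the 10, at about 1.14 and 1.16 kb of transcript. The part of transcript length in their blank 1 values was not tested. Several results that rest on blank 1 or SUI 1 are therefore also given without them. Skeletal muscle markers were abundant in every library, with 6 fast fibre markers summing to 57265 to 147429 CPM and 8 slow fibre markers to 6186 to 14416 CPM per library. In bulk muscle, fewer cells of a type and less RNA per cell cannot be told apart.

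Per unit of transcript length, 6 of the genes were among the most abundant messages of the muscle and 4 were not. Hspb6, whose product binds contractile and signalling proteins, averaged 892 FPKM over the 9 libraries and ranked 49 of the 30518 rows. Cryab, encoding αB-crystallin, the chaperone of desmin, averaged 680 FPKM and ranked 56. Hsp90ab1, the constitutive Hsp90, and Hspa8, the constitutive Hsp70, averaged 393 and 391 FPKM. They ranked 96 and 97, and their order was within their spread, with ranges over libraries of 281 to 613 and 242 to 678 FPKM. Hspb7, a small heat shock protein of heart and skeletal muscle that binds filamin C, averaged 186 FPKM, and Hspb1, which binds actin and filamin, 171 FPKM. The order of Hspb7 and Hspb1 was within their spread, since their ranges over libraries were 114 to 328 and 37.9 to 266 FPKM.

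The other 4 genes were much lower. Hsp90aa1, the stress-inducible Hsp90, averaged 16.4 FPKM, Hsf1 14.5 FPKM and Hsph1, the Hsp110 that resets Hsp70, 12.2 FPKM. These 3 overlapped in their ranges, so their order is not resolved either. Dnajb1, the inducible J-domain partner of Hsp70, was lowest at 3.17 FPKM and ranked 6532. Together Hspb6 and Cryab supplied 32.3% and 24.6% of the summed FPKM of the 10 genes, and Dnajb1 0.115%. Hsp90aa1 stood at 2.43% to 5.02% of Hsp90ab1 by FPKM in 8 libraries and at 8.18% in SUI 1. On the TMM-adjusted CPM scale the 10 genes summed to between 4201 CPM (blank 2) and 6558 CPM (SUI 2). These sums are not shares of the raw counts of a library. By FPKM the sum was lowest in blank 1, at 1979, and highest in SUI 1, at 3686.

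**Figure D1:**
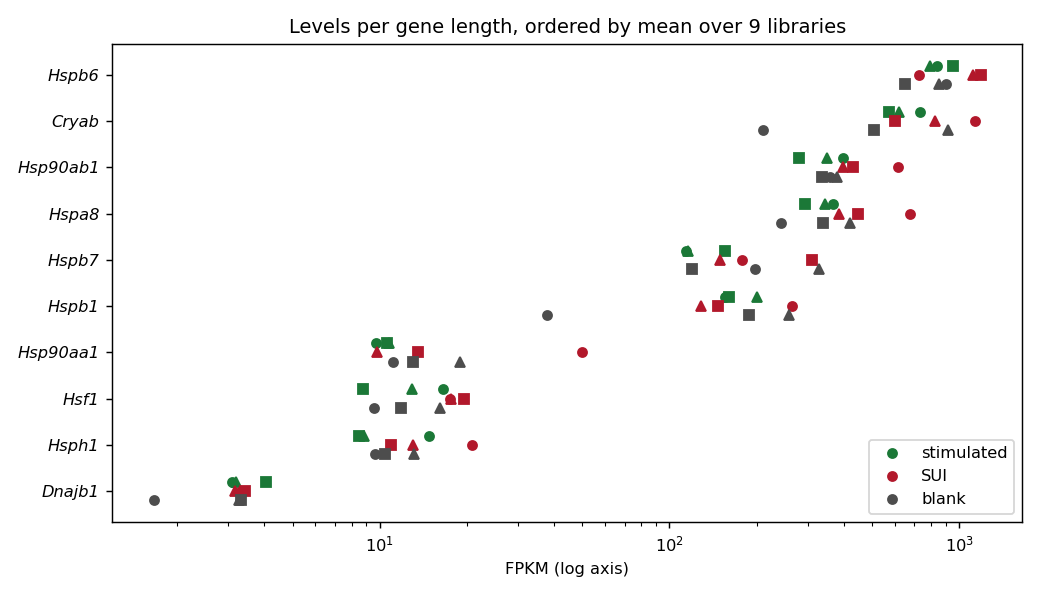
Level of each gene in FPKM (log axis) in the 9 libraries, with stimulated, SUI and blank libraries in green, red and grey and circles, squares and triangles for replicates 1, 2 and 3. Hspb6, Cryab, Hsp90ab1, Hspa8, Hspb7 and Hspb1 form an upper band with means of 171 to 892 FPKM, and the other 4 genes a lower one with means of 3.17 to 16.4 FPKM; blank 1 is far left for Hspb1 (37.9) and Cryab (210), and SUI 1 far right for Hsp90aa1 (50.1).

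Among the small heat shock protein genes, the libraries of a group differed as much as the groups did. Hspb6 measured 1927, 1799 and 1646 CPM in stimulated muscle, 1140, 2385 and 2334 CPM in SUI muscle and 2503, 1247 and 1666 CPM in blank muscle. Both the lowest SUI and the highest blank value came from the libraries SUI 1 and blank 1, and all groups overlapped. Cryab measured 952, 616 and 730 CPM in stimulated, 1014, 684 and 980 CPM in SUI and 332, 554 and 1013 CPM in blank muscle. Its blank libraries alone covered nearly the whole range of the other 2 groups. Hspb1 measured 198, 169 and 232 CPM in stimulated, 232, 164 and 150 CPM in SUI and 58.6, 201 and 281 CPM in blank muscle. Hspb1 averaged 199 ± 31.4 CPM in stimulated, 182 ± 44.3 CPM in SUI and 180 ± 113 CPM in blank muscle (SD, n = 3 each), with blank 1 far below every other library. Hspb7 measured 305, 342 and 281 CPM in stimulated muscle, 325, 725 and 364 CPM in SUI muscle and 638, 268 and 743 CPM in blank muscle. Its stimulated libraries lay close together, whereas SUI and blank muscle each held at least 1 library in or just below the stimulated range and at least 1 far above it.

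The 3 genes of the Hsp70 machinery differed in spread, and by CPM that of Hsph1 was widest in stimulated muscle. Hspa8 measured 1135, 755 and 964 CPM in stimulated muscle, 1441, 1213 and 1080 CPM in SUI muscle and 916, 884 and 1111 CPM in blank muscle. SUI muscle had the highest mean, 1245 ± 182 CPM, beside 951 ± 191 in stimulated and 970 ± 123 in blank muscle (SD, n = 3 each), but SUI 3 lay within the range of both other groups. Hsph1 measured 69.3, 32.9 and 37.8 CPM in stimulated, 67.5, 45.1 and 55.9 CPM in SUI and 56.0, 41.2 and 52.4 CPM in blank muscle. Its highest and its lowest library by CPM were both stimulated ones, but by FPKM its highest was SUI 1, at 20.8. Dnajb1 measured 9.12, 9.82 and 8.46 CPM in stimulated, 6.70, 8.81 and 8.50 CPM in SUI and 5.93, 8.20 and 8.17 CPM in blank muscle. All 3 stimulated libraries exceeded all 3 blank ones, by as little as the step between 8.46 and 8.20 CPM. By FPKM these groups overlapped, at 3.10, 4.05 and 3.18 in stimulated and 1.66, 3.33 and 3.27 in blank muscle.

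The Hsp90 genes differed in how evenly they were expressed. Hsp90ab1 measured 1306, 769 and 1037 CPM in stimulated muscle, 1383, 1228 and 1193 CPM in SUI muscle and 1419, 922 and 1056 CPM in blank muscle. The ranges of its 3 groups overlapped. Hsp90aa1 measured 34.8, 31.3 and 35.2 CPM in stimulated muscle, 123, 42.5 and 32.1 CPM in SUI muscle and 48.5, 39.2 and 58.1 CPM in blank muscle. The value of SUI 1 was more than any other library's, and SUI 3 fell inside the stimulated range. Stimulated muscle lay wholly below blank muscle for Hsp90aa1, with group means of 33.8 ± 2.13 and 48.6 ± 9.46 CPM (SD, n = 3 each). Hsf1 measured 62.7, 26.7 and 44.0 CPM in stimulated, 42.0, 62.2 and 58.3 CPM in SUI and 38.9, 37.0 and 49.7 CPM in blank muscle. As with Hsph1, its highest and lowest libraries by CPM were both stimulated, but by FPKM its highest was SUI 2, at 19.6. Hsf1 overlaps Dgat1, and Hsp90ab1 overlaps Nfkbie and Aars2, on the opposite strand in the deposited annotation (mRatBN7.2). No source used here says if counting used strand, so reads of these partners cannot be told apart.

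**Figure D2:**
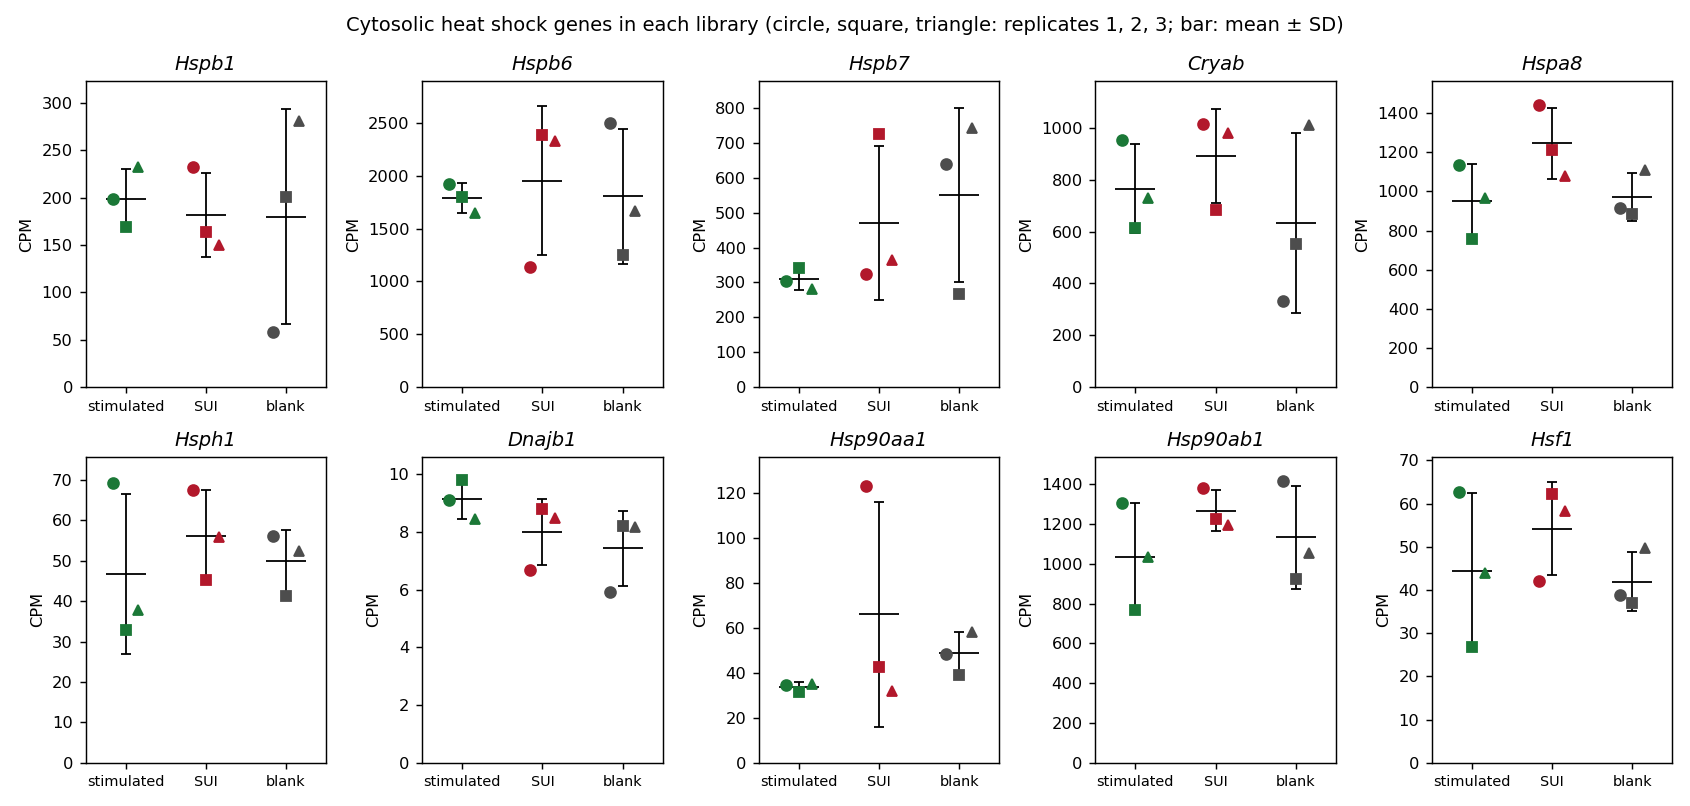
CPM of each of the 10 genes in stimulated, SUI and blank muscle, with a point per library (circle, square and triangle for replicates 1, 2 and 3), the mean as a line and the SD as an error bar; every axis starts at 0. On this scale only Dnajb1 (stimulated above blank) and Hsp90aa1 (stimulated below blank) show a pair of groups that do not overlap, and SUI 1 stands alone for Hsp90aa1 at 123 CPM.

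Single libraries stood at the extreme of several genes at once, and which ones depended on the scale. By CPM, stimulated 2 was the lowest of the 9 libraries for Hspa8, Hsph1, Hsp90aa1, Hsp90ab1 and Hsf1, and SUI 1 the highest for Cryab, Hspa8 and Hsp90aa1. Blank 1 was lowest for Hspb1, Cryab and Dnajb1 and highest for Hspb6 and Hsp90ab1. The summed CPM of Hspa8, Hsph1, Dnajb1, Hsp90aa1 and Hsp90ab1 was 2555, 1597 and 2082 in stimulated, 3022, 2538 and 2369 in SUI and 2445, 1895 and 2285 in blank muscle. That of the 4 small heat shock protein genes was 3382, 2926 and 2889 in stimulated, 2712, 3958 and 3828 in SUI and 3532, 2269 and 3703 in blank muscle. By CPM, SUI 1 therefore had the highest sum of the folding machinery and the second-lowest sum of small heat shock protein genes. On the FPKM scale, SUI 1 was the highest library for 6 genes and the lowest for 0. Those 6 included the small heat shock protein genes Hspb1 (266 FPKM) and Cryab (1134 FPKM), but not Hspb6 (726 FPKM) or Hspb7 (178 FPKM). Stimulated 2 was lowest for 3 genes by FPKM, and blank 1 for 4. The contrast between the sums in SUI 1 was not tested by FPKM.

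Markers of other cells also varied by library. Fibroblast markers, 8 of 8 measured and none at 0 in any library, summed to 1868, 5599 and 3170 CPM in stimulated muscle, 2122, 1657 and 1708 CPM in SUI muscle and 2348, 2616 and 2997 CPM in blank muscle. The highest of these sums came from stimulated 2, the library that was lowest for 5 of the 10 genes by CPM. Slow fibre markers, 8 of 8 measured, summed to 14416, 8321 and 11695 CPM in stimulated, 6186, 13661 and 10008 CPM in SUI and 14184, 10525 and 11303 CPM in blank muscle. By CPM, SUI 1 was lowest in these and in Hspb6, but by FPKM Hspb6 was lowest in blank 2. SUI 1 was also lowest in the fast fibre markers, at 57265 CPM. Clock genes, 16 of 16 measured, summed to 936 to 1217 CPM in stimulated and 588 to 729 CPM in SUI muscle, against 1010 to 1282 CPM in blank muscle. The part of fibre type, connective tissue cells or time of collection in the values of the heat shock genes was not tested.

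Within groups, the heat shock genes were about as variable as other genes. Their median coefficient of variation over libraries was 17.9% in stimulated, 20.2% in SUI and 21.1% in blank muscle. Over 12087 genes with a mean of at least 1 CPM the median was 14.6% in stimulated, 19.1% in SUI and 25.9% in blank muscle. Stimulated muscle was the least variable of the 3 groups for 5 of the 10 genes, a share of 50.0%, compared with 45.9% of these 12087 genes.

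SUI over blank asked what ovary removal and distension left in the muscle. None of the 10 genes passed the threshold: edgeR's quasi-likelihood test called 0 of 10 at an adjusted p under 0.05, in a background of 0% of 16256 genes called. The estimated changes were small and mostly positive. Positive log2 fold changes numbered 9 of 10, where 50.8% of all genes had one, and the median of the 10 was 0.17 beside 0.01 over all genes. Cryab had the largest estimate, 0.50 ± 0.38 (log2 fold change ± SE, edgeR adjusted p = 0.697), followed by Hsp90aa1 at 0.44 ± 0.43 (0.753), Hsf1 at 0.37 ± 0.30 (0.712) and Hspa8 at 0.36 ± 0.23 (0.653). Hsph1 at 0.17 ± 0.30, Hsp90ab1 at 0.16 ± 0.26, Hspb6 at 0.11 ± 0.34, Dnajb1 at 0.10 ± 0.21, Hspb1 at 0.02 ± 0.46 and Hspb7 at -0.22 ± 0.41 were all smaller than their errors.

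At an unadjusted p under 0.05 edgeR again counted 0 of the 10, where 8.18% of all genes passed. DESeq2 and voom also called 0 of 10 at their adjusted p, where DESeq2 called 1.08% and voom 0% of all genes. By CPM, SUI and blank muscle overlapped for all 10 genes, whereas 15.1% of all genes had groups that did not overlap. By FPKM, SUI muscle lay wholly above blank muscle for Hsf1 (17.5 to 19.6 against 9.57 to 16.1) and Hsp90ab1 (396 to 613 against 336 to 379). The share of all genes without overlap by FPKM was not counted, so these 2 have no background to be read against. The median change over all genes was itself 0.09 on log2(FPKM + 1) and 0.19 on log2(FPKM + 0.1). Leaving out 1 library was enough to change what several genes showed. Without SUI 1 the change of Hsp90aa1 was -0.39, and without blank 1 that of Hspb1 was -0.38 and that of Cryab 0.20. Without blank 3, Cryab stood at 1.01 and Hspb1 at 0.49. Positive estimates numbered 7 of 10 without blank 1, 7 without SUI 1 and 8 without both. Without both, Hspb6 stood at 0.70 and Cryab at 0.09. In that fit 2 of the 10 had an edgeR unadjusted p under 0.05, with the share of all genes not counted, and none passed the adjusted threshold. With library totals in place of TMM factors the median over all genes moved to 0.19, and that of the 10 to 0.41.

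Stimulated over SUI asked what the 2 weeks of current changed in rats that all had the model. Again no gene of the 10 passed, with 0 of 10 at an adjusted p under 0.05 by edgeR, where 0.0123% of all genes were called. The signs were mostly opposite to those of the first comparison. The 2 comparisons share the SUI libraries, so that a high SUI value raises one and lowers the other. Negative log2 fold changes numbered 8 of 10, where 47.4% of all genes had one, and the median was -0.28 beside 0.02 over all genes. Hsp90aa1 had the largest estimate, -0.97 ± 0.44 (edgeR unadjusted p = 0.052, adjusted p = 0.629), and it was -0.13 without SUI 1. Hspb7 followed at -0.61 ± 0.41 (adjusted p = 0.769), and it was -0.16 without SUI 2, its highest SUI library.

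Hspa8 stood at -0.39 ± 0.23 (edgeR adjusted p = 0.732), and ranged from -0.53 to -0.25 as single libraries were left out. A kept sign in these fits was common to the 10 genes except Hspb6, which reached 0.04 without SUI 2. Hsp90ab1 at -0.29 ± 0.26 (adjusted p = 0.849), Hsf1 at -0.28 ± 0.30 (0.884) and Hsph1 at -0.27 ± 0.30 (0.89) came close to 0 without stimulated 2, at -0.11, -0.02 and -0.07. Cryab at -0.22 ± 0.38 and Hspb6 at -0.13 ± 0.34 were within their errors, and so were Dnajb1 at 0.19 ± 0.21 and Hspb1 at 0.13 ± 0.46. The median of the 10 was -0.10 without stimulated 2 and -0.17 without SUI 1. By edgeR 0 of 10 had an unadjusted p under 0.05, where 8.00% of all genes did, and DESeq2 and voom called 0 of 10 at their adjusted p, beside 1.28% and 0.295% of all genes. By CPM, stimulated and SUI muscle overlapped for all 10 genes, and 18.8% of all genes had groups that did not. By FPKM, stimulated muscle lay wholly below SUI muscle for Hspa8 (294 to 367 against 384 to 678) and Hsf1 (8.73 to 16.5 against 17.5 to 19.6). The share of all genes without overlap by FPKM was not counted here either. The median change over all genes was -0.05 on log2(FPKM + 1) and -0.09 on log2(FPKM + 0.1).

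Stimulated over blank set treated model muscle against untouched muscle, and here the estimates scattered around 0. EdgeR called 0 of 10 at an adjusted p under 0.05, where 0.00615% of all genes were called. Positive changes numbered 4 of 10, as for 54.3% of all genes, and the median was -0.02 beside 0.04. Hspb7 had the largest estimate, -0.83 ± 0.41 (edgeR unadjusted p = 0.0713, adjusted p = 0.898), with values between -1.16 and -0.55 as single libraries were left out. Hsp90aa1 stood at -0.52 ± 0.43 and Dnajb1 at 0.29 ± 0.21 (adjusted p = 0.898 for each). By CPM these 2 were the members whose groups did not overlap, Hsp90aa1 lower and Dnajb1 higher in stimulated muscle. On that scale groups did not overlap for 12.6% of all genes, 7.90% higher and 4.72% lower in stimulated muscle, so 2 of 10 is near the background. By FPKM, Hsp90aa1 was still without overlap, at 9.70 to 10.8 in stimulated and 11.1 to 19.0 in blank muscle, but Dnajb1 overlapped. The share of all genes was not counted on the FPKM scale.

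Cryab at 0.28 ± 0.38, Hspb1 at 0.15 ± 0.46 and Hsf1 at 0.09 ± 0.30 were positive. Hspb6 at -0.01 ± 0.34, Hspa8 at -0.03 ± 0.23, Hsph1 at -0.10 ± 0.30 and Hsp90ab1 at -0.13 ± 0.26 were negative. The size of each was below its error. The unadjusted p of edgeR was under 0.05 for 0 of 10 and for 3.77% of all genes, and DESeq2 and voom called 0 of 10 at their adjusted p, beside 0.129% and 0.00615% of all genes. A p above the threshold does not show that these levels are equal, and with 3 libraries per group the errors were 0.21 to 0.46 log2 units.

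**Figure D3:**
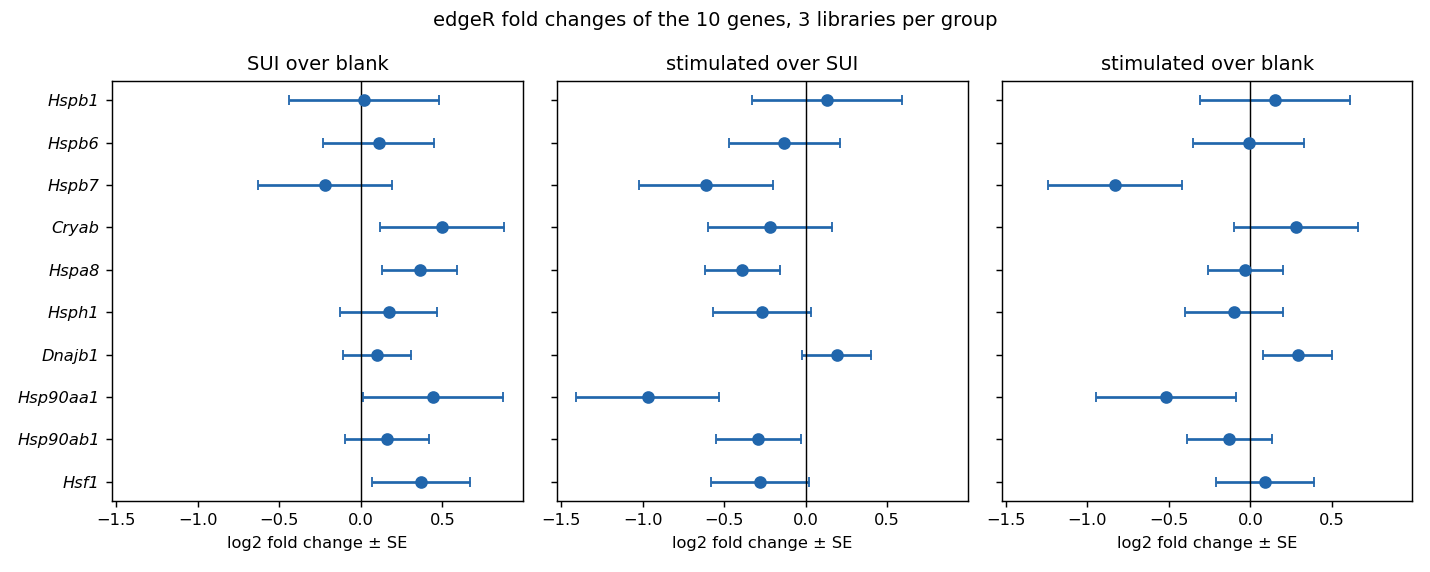
EdgeR log2 fold changes of the 10 genes with their SE as error bars in the 3 comparisons, SUI over blank, stimulated over SUI and stimulated over blank, with 3 libraries per group. Most points lie right of 0 on the left, where the median is 0.17, left of 0 in the middle, where it is -0.28, and around 0 on the right, where it is -0.02, and none passed the adjusted threshold.

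**Figure D4:**
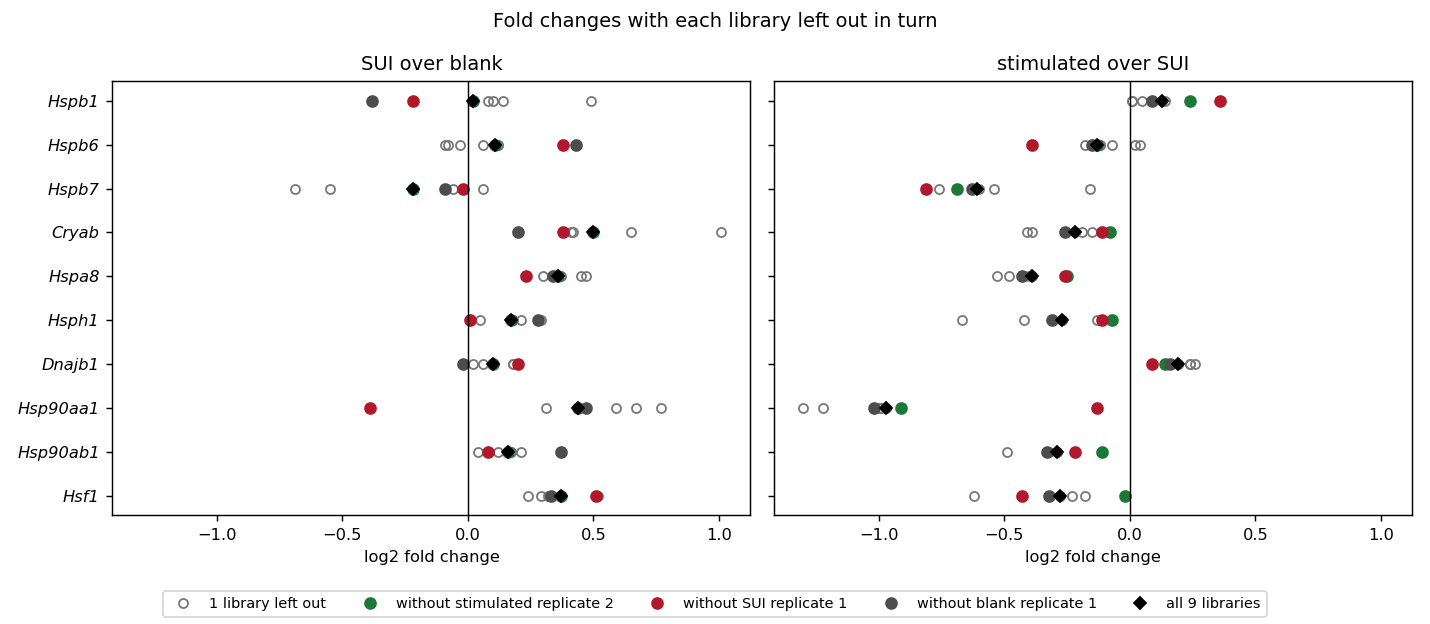
Log2 fold changes of the 10 genes in SUI over blank and in stimulated over SUI, from all 9 libraries (black diamonds) and with each library left out in turn (circles, coloured for stimulated 2, SUI 1 and blank 1). Hsp90aa1 moves most when SUI 1 is left out, to -0.39 in SUI over blank and to -0.13 in stimulated over SUI, and Hspb1 and Cryab spread most with the blank libraries.

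The wider chaperone network gave the setting for these 10 genes. Of 57 other genes listed, 55 matched a row and 53 were tested, and none passed an adjusted p of 0.05 in any comparison with edgeR. The 57 are mostly genes of cytosolic chaperones and co-chaperones, and include the other heat shock factors and their regulator. In SUI over blank 27 of the 53 were positive and 26 negative, with a median of 0.01, and at an unadjusted p under 0.05 there were 2 higher and 2 lower. In stimulated over SUI 19 were positive and 34 negative, with a median of -0.12, and 1 was higher at an unadjusted p under 0.05. Stimulated over blank had 24 positive and 29 negative, with a median of -0.07, and 1 lower.

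The gene with the smallest p among them in both comparisons with SUI was Hspb3, a small heat shock protein of skeletal and cardiac muscle that assembles with Hspb2. It measured 25.0, 30.9 and 28.8 CPM in stimulated, 7.98, 17.4 and 16.0 CPM in SUI and 27.6, 26.6 and 24.7 CPM in blank muscle. SUI muscle lay wholly below both other groups. Its log2 fold change was -0.93 ± 0.27 in SUI over blank (edgeR unadjusted p = 0.00673, adjusted p = 0.504) and 1.03 ± 0.27 in stimulated over SUI (0.00363, 0.418), and without SUI 1 these were -0.67 and 0.77. In these comparisons 7.77% of all genes did not overlap and were lower, and 9.52% did not overlap and were higher. Hspb8, the partner of Bag3 in the removal of damaged filamin, had the opposite signs, at 0.45 ± 0.31 and -0.45 ± 0.31 (adjusted p = 0.667 and 0.771). The groups of Hspb8 overlapped, and its change in SUI over blank was 0.04 without blank 1 and SUI 1 together. Bag3 itself was near 0 in SUI over blank, at -0.00 ± 0.41 (adjusted p = 0.998), and stood at 0.27 ± 0.41 in stimulated over SUI (0.932), where it measured 331, 94.4 and 175 CPM in stimulated against 133, 174 and 193 CPM in SUI muscle.

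Among other Hsp70 genes, 2 of 9 were positive in SUI over blank, with a median of -0.26, and 4 of 9 were positive without blank 1, with a median of -0.04. Hspa1a, the classical stress-inducible Hsp70, measured 13.6, 17.5 and 28.2 CPM in stimulated, 18.8, 30.6 and 12.0 CPM in SUI and 66.4, 27.5 and 32.4 CPM in blank muscle. Blank 1 was its highest library. The log2 fold change of Hspa1a was -1.04 ± 0.44 in SUI over blank (edgeR adjusted p = 0.593), and -0.53 without blank 1, and it was -1.09 ± 0.44 in stimulated over blank (0.898), and -0.62 without blank 1. Hspa1a and Hspa1b are near-identical copies, so the split of reads between them is uncertain. Hspa1b stood at -0.75 ± 0.50 in SUI over blank (edgeR adjusted p = 0.661) and at -0.34 ± 0.50 in stimulated over blank (0.915). In stimulated over SUI, Hspa1b stood at 0.41 ± 0.50 (0.904) and Hspa1a at -0.05 ± 0.43 (0.992). Hspa12b, a distant relative of Hsp70 found in endothelium, stood at 1.28 ± 0.40 in SUI over blank (adjusted p = 0.524), and at 0.65 without blank 1 and SUI 1 together.

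The co-chaperones of Hsp70 and Hsp90 had a median near 0 in SUI over blank (-0.02, with 8 of 21 positive), but 17 of 21 were positive without blank 1 and also with library totals. The median over all genes was 0.03 without blank 1 and 0.19 with library totals, so the latter count includes a general shift. J-domain proteins other than Dnajb1 had 5 of 9 positive in SUI over blank, with a median of 0.04, and 4 of 9 in stimulated over SUI, with a median of -0.19. Fkbp5, a co-chaperone of steroid receptor complexes and a glucocorticoid target, measured 146, 29.0 and 93.0 CPM in stimulated, 115, 221 and 294 CPM in SUI and 24.3, 37.4 and 170 CPM in blank muscle. Its log2 fold changes of 1.45 ± 0.77 in SUI over blank and -1.24 ± 0.76 in stimulated over SUI carried wide errors (edgeR adjusted p = 0.61 and 0.739), and the first was 2.77 without blank 3. Ptges3, the Hsp90 co-chaperone p23, was lower in stimulated than in blank muscle without overlap, at 51.3, 40.1 and 47.9 CPM against 106, 54.9 and 62.7 CPM. Its log2 fold change was -0.68 ± 0.31 (adjusted p = 0.898), and -0.36 without blank 1. Of the other heat shock factors, Hsf2 stood at -0.64 ± 0.29 in stimulated over SUI (adjusted p = 0.629), and at -0.20 without SUI 1, and Hsf4 at -0.58 ± 0.27 (0.644).

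The subunits of TRiC, the ring-shaped chaperonin that folds actin and tubulin, had mostly positive changes in SUI over blank and only negative ones in stimulated over SUI. In SUI over blank 7 of 8 were positive, with a median of 0.37, and Tcp1 was the exception at -0.19. For 6 of 8 the SUI libraries lay wholly above the blank ones, which held for 7.34% of all genes. Cct5 measured 165, 167 and 159 CPM in SUI muscle, against 88.9, 116 and 135 CPM in blank muscle, a log2 fold change of 0.53 ± 0.20 (edgeR unadjusted p = 0.0235, adjusted p = 0.552). In stimulated over SUI all 8 subunits were negative, with a median of -0.21, and 4 of 8 were lower without overlap, as were 9.28% of all genes. Cct3 measured 103, 84.8 and 88.9 CPM in stimulated, against 121, 124 and 104 CPM in SUI muscle (-0.34 ± 0.18, adjusted p = 0.699). The medians without blank 1 and SUI 1 together were 0.25, with 8 of 8 positive, and -0.18, with 8 of 8 negative. No subunit passed the adjusted threshold, and the 2 comparisons share the SUI libraries.

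Chaperones of the endoplasmic reticulum, which answer to the unfolded protein response rather than to Hsf1, had 11 of 11 negative in stimulated over SUI, with a median of -0.36, and 8 of 11 without SUI 1. Dnajb9 measured 25.7, 19.6 and 21.7 CPM in stimulated, against 30.1, 28.3 and 48.3 CPM in SUI muscle, and stood at -0.67 ± 0.23 (edgeR unadjusted p = 0.0171, adjusted p = 0.513), and at -0.39 without SUI 3. Hyou1 stood at -0.63 ± 0.23 (0.0214, 0.527). In SUI over blank 7 of 11 were positive, with 11 of 11 without blank 1 or with library totals and 3 of 11 without SUI 1. With library totals the median over all genes was 0.19. Hspa5, the Hsp70 of this compartment, stood at 0.68 ± 0.30 (adjusted p = 0.607) and at 0.38 without SUI 3. Mitochondrial chaperones had 4 of 7 positive both in SUI over blank, with a median of 0.09, and in stimulated over SUI, with a median of 0.01, and 7 of 7 positive in SUI over blank without blank 1. Sqstm1, the autophagy receptor p62 that takes up ubiquitinated chaperone clients, measured 440, 294 and 391 CPM in stimulated, 866, 646 and 544 CPM in SUI and 239, 424 and 495 CPM in blank muscle. SUI muscle lay above both other groups for Sqstm1, at 0.83 ± 0.31 in SUI over blank (adjusted p = 0.552) and -0.87 ± 0.31 in stimulated over SUI (0.521), and at 0.37 and -0.67 without blank 1 and SUI 1 together.

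**Figure D5:**
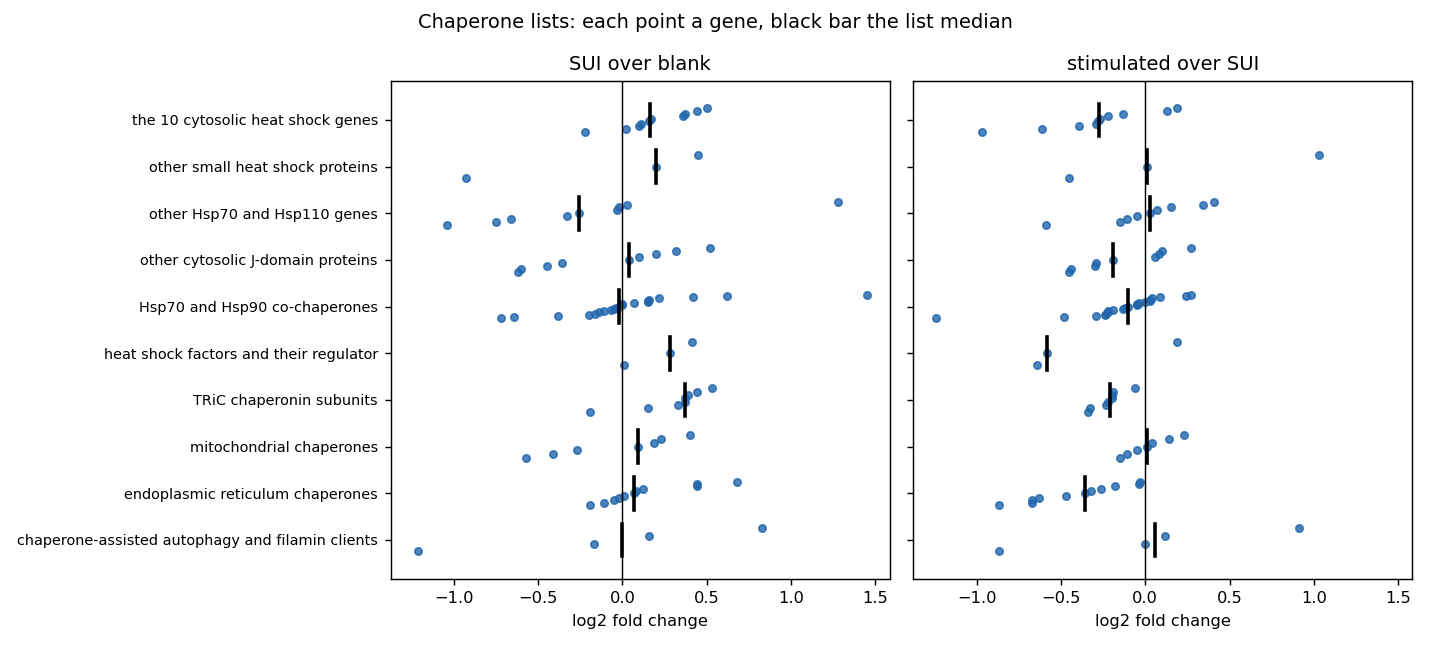
Log2 fold change of each gene (points) and the median (black bar) of the 10 heat shock genes and of 9 other lists of chaperones and related genes, in SUI over blank and in stimulated over SUI. The medians of the 10 genes are 0.17 and -0.28, those of the TRiC subunits 0.37 and -0.21, and those of the endoplasmic reticulum chaperones 0.07 and -0.36; no gene shown passed an adjusted p of 0.05.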

How the data were processed

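RNA sequencing tables of 9 libraries were analysed, 3 per group, with groups and replicate numbers set by the sample titles, which were also followed where library names call SUI muscle sham. Per the submitters' processing notes, the reads were processed with Bowtie2, RSEM 1.3.1 and DESeq2 1.4.5 on the build mRatBN7.2. The deposited expected counts are whole numbers, and were used as deposited. Beside an FPKM under 0.001 stand 358 values of 1, and whether small values were rounded up was not tested. The deposited FPKM values, scaled by the authors for gene length and library size, served to compare genes, to derive transcript lengths and for alternatives on log2(FPKM + 1) and log2(FPKM + 0.1). Of 30518 rows, 4341 lack a symbol and 916 repeat an Ensembl ID. For Hspa8, 2 further rows were not used.

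Counts were filtered with filterByExpr and scaled by TMM, and all 9 libraries were fitted together with edgeR 4.0.16 (R 4.3.3, robust quasi-likelihood F test, Benjamini-Hochberg adjustment over 16256 genes, threshold 0.05). The SE of a log2 fold change is its size over the square root of F. Library depths of 50833480 to 147650284 counts put 3 counts at 0.0210 to 0.0793 CPM, a limit for counting error alone. The members and the gene lists were chosen with earlier results of these data known. All 10 members are named, and of each list up to 4 genes with the smallest p in a comparison, with Myh7, Cirbp, Rbm3, Hspa1a, Hspa1b, Bag3 and Hspb8 as further candidates, of which Cirbp has no row under that symbol. Same-numbered libraries deviated from their group means with correlations of -0.218 to 0.113, so the numbers were not used as pairs. Alternatives were DESeq2 size factors, library totals, other filters, DESeq2 1.42.0, voom (limma 3.58.1) with sample weights, a replicate block, fits on only the 6 libraries of a comparison, limma on log2 FPKM, a gene length trend, summed rows, and leaving out libraries. The counts of the lists without libraries, and the named list genes under all alternatives, were added after seeing the data. Promoter sequences and symbol synonyms are from RefSeq (GRCr8), and gene coordinates of that assembly were not mixed with those of mRatBN7.2.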

Additional observations from a re-analysis of the deposited data

How the results depend on the processing

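No member was called in any comparison under any of the 22 alternatives run. Of the 220 values of members in each comparison, 17, 3 and 22 changed sign (SUI over blank, stimulated over SUI and stimulated over blank). In SUI over blank, Hspb1 was -0.41 with voom, -0.02 with the length trend removed and -0.62 without blank 1 and SUI 1 together, Hspb7 0.12 with voom, 0.03 on either FPKM scale and 0.11 without both libraries, and Hsp90aa1 -0.15 with voom and -0.38 without both. In stimulated over SUI, Hspb1 was -0.05 with library totals and Bag3 -0.05 on both FPKM scales. In stimulated over blank, Hspb6 was 0.10 with library totals, 0.20 with voom, 0.11 on both FPKM scales and 0.30 without both libraries, Hspb1 -0.27, Cryab -0.03 and Hsp90ab1 0.07 without both, Hsp90ab1 0.04 with voom, Hspa8 0.03 on both FPKM scales and Hspb3 -0.05 with the length trend removed. The cause was not tested.

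Leaving out each library in turn gave, in SUI over blank, -0.38 to 0.49 for Hspb1, -0.09 to 0.43 for Hspb6, -0.69 to 0.06 for Hspb7, -0.02 to 0.20 for Dnajb1 and -0.39 to 0.77 for Hsp90aa1. In stimulated over SUI it gave -0.39 to 0.04 for Hspb6 and -0.31 to 0.60 for Bag3. In stimulated over blank it gave -0.29 to 0.62 for Hspb1, -0.22 to 0.28 for Hspb6, -0.05 to 0.79 for Cryab, -0.17 to 0.12 for Hspa8, -0.49 to 0.10 for Hsph1, -0.32 to 0.05 for Hsp90ab1, -0.24 to 0.35 for Hsf1 and -0.31 to 0.60 for Bag3.

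Over all genes, edgeR called 0, 2 and 1 in the 3 comparisons and DESeq2 176, 208 and 21. In stimulated over SUI the count was 48 with voom, 1 with library totals and 0 with the 6 libraries compared, on both FPKM scales and without both libraries. In stimulated over blank it was 0 with the 6 libraries, on log2(FPKM + 1) and without both. With the replicate block the counts were 0, 1 and 0, and no member's call changed. Without single libraries they ranged from 0 to 1, 0 to 3 and 0 to 1. With library totals the median of all genes moved to 0.19, -0.11 and 0.09. With 3 libraries per group the errors of the members were 0.21 to 0.46, and the lowest count of any member in a library was 224 (Dnajb1).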
